A study of Homo sapiens with 18 samples.

Results

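Heat shock proteins, chaperones and cochaperones were followed through 2 and 8 h of electrotaxis in 2 brain tumor lines. The 97 members were taken from 32490 gene names by symbol: HSP, DNAJ, CCT and BAG names plus 6 cochaperones of HSP90 and the heat shock factors HSF1 and HSF2, each with at least 1 protein-coding transcript. The pattern matched 160 names, of which 63 had no protein-coding transcript and were left out. The rule uses symbols and transcript types, not measured values. Roles were also given by symbol alone, so that HSPB11 is counted as a small heat shock protein. By role there were 3 HSP90 proteins, 15 HSP70 and HSP110 proteins, 8 small heat shock proteins, 10 chaperonin subunits, 4, 11 and 28 J-domain proteins of class A, B and C, 7 nucleotide exchange factors, 6 HSP90 cochaperones, 2 heat shock factors and 3 other names.

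U87 mg, an established line labelled as a glioblastoma, and DAOY, an established line labelled as a desmoplastic cerebellar medulloblastoma, were grown as spheroidal aggregates in Matrigel within a channel. Aggregates of each line were kept at 0 V/m (0 h) or placed in a direct current field of 250 V/m for 2 or 8 h, with 3 samples in each of the 6 groups and 18 in all. Each sample pooled 3 channels, and the 3 biological replicates of a group were those with the best quality control. Channels held for 2 or 8 h without current were not analysed here, and field and duration therefore cannot be told apart. Each line stands for 1 tumor.

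Cells keep proteins folded with chaperones that bind exposed hydrophobic stretches. HSP70 proteins hold client chains in cycles of ATP hydrolysis that J-domain proteins start and exchange factors end, HSP90 and its cochaperones finish many kinases and receptors, chaperonins enclose whole chains, and small heat shock proteins hold unfolded clients without ATP. When unfolded protein accumulates, HSF1 binds heat shock elements, inverted repeats of a short GAA unit, before many of these genes.

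The libraries held 8341976 to 15610886 estimated counts, of which the members took 1.97% to 2.82%. Log2 levels of libraries of the same group correlated at 0.953 or more across genes. Mitochondrial transcripts took 2.83% to 8.44% of the counts, most in DAOY 8 h replicate 1. Among the defining markers, VIM, CD44 and FN1 were high in both lines (at least 756 TPM, a share of all transcripts corrected for length), while the glial markers GFAP, OLIG2 and S100B reached at most 3.11 TPM. SOX2 was at 0.0858 TPM or less in U87 mg and 2.93 to 6.92 TPM in DAOY, NES at 5.58 to 9.25 and 0.171 to 0.715 TPM, and the granule neuron markers ZIC1 and ZIC2 between 2.53 and 20.9 TPM over both lines, while BARHL1 did not exceed 0.0463 TPM and ATOH1 had no row. Leukocyte and endothelial markers stayed at 2.30 TPM or less, apart from PECAM1 at 5.46 to 12.9 TPM in DAOY.

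The start regions of 5 genes that rose at 8 h and have matches to the heat shock element, and of HSP90AA1 for contrast, are shown. They were picked for their matches. The motif searched was GAANNTTC or TTCNNGAA, each its own reverse complement, so that both strands are covered. Matches are in capitals. The sequences are RefSeq promoters on GRCh38.p14, read 5′ to 3′ on the gene's strand. Windows of 60 bases lie outside annotated exons, and those of 30 bases overlap one.
CHORDC1, chr11:90223083-90223112, minus strand: ccgGAAAATTCGCGAAGGTTCCTGAAacgc
DNAJB6, chr7:157336864-157336923, plus strand: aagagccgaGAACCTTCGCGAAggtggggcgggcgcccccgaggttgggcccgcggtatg
DNAJB1, chr19:14518428-14518487, minus strand: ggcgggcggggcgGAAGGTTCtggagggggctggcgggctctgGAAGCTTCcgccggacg
DNAJB4, chr1:78004794-78004853, plus strand: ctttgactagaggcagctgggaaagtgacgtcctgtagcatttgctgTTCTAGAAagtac
DNAJA1, chr9:33025267-33025296, plus strand: cgccgggcgGAACTTTCCAGAAcgctcggt
HSP90AA1, chr14:102087105-102087134, minus strand: tcTTCCGGAAGGTTCgggaggcTTCTGGAA

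In CHORDC1 the matches shown form one run that began 60 bases before the start, and single matches lay 205 and 23 bases before it. In DNAJB6 they began 131 and 126 bases before it, in DNAJB1 77 and 47, in DNAJB4 98, and in DNAJA1 the run shown lay behind the start, from base 4, with a single match 198 bases before it. A second promoter of DNAJB1 had a match from base 2 behind its start. A longer motif of 3 units, GAANNTTCNNGAA or its reverse complement TTCNNGAANNTTC, which contains the shorter one, was present in 0.49% of 35116 promoters of 300 bases and in 7.08% of the 113 promoters of the 85 members in the table. The shorter motif was present in 13.5% and 25.7%. Counted by gene, the shorter motif was in 16.2% of 27305 genes and in 28 of the 85 members, or 32.9%. The longer was in 0.608% of genes and in 8 members, or 9.41%. Of the 10 genes that rose in U87 mg at 8 h, 6 had the shorter motif, these 5 and DNAJA4. The direction of DNAJA4 was set by the count filter, as given below. HSPH1, BAG1, DNAJC2 and HSPE1-MOB4 had no match in their windows. The longer one was found in 3, CHORDC1, DNAJA1 and DNAJB6. A match is only a match of letters. HSP90AA1, HSP90AB1, HSPA8 and HSPD1, which have both motifs, did not pass the test at 8 h in either line. HSPA6, at 0 to 46 counts a sample, also has both motifs and was called at 8 h in neither line.

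Before the field, the members spanned the whole range of expression, as the plot of levels by role shows. Among the abundant ones were the HSP90 proteins, the constitutive HSP70 HSPA8, most chaperonins, and DNAJA1 at 328 ± 44.7 TPM in U87 mg and 696 ± 149 TPM in DAOY. HSPA8 stood at 1916 ± 311 TPM in U87 mg and 2560 ± 697 TPM in DAOY (SD, n = 3), and HSP90AA1, the cytosolic HSP90 that heat induces, at 1643 ± 236 and 1906 ± 217 TPM. At the other end, HSPA12B, DNAJB7, DNAJB13, DNAJC5B, DNAJC5G, HSPB2 and HSPB9 did not reach the count filter in either line, which leaves 90 of 97 members tested in the comparison of the lines.

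**Figure D1:**
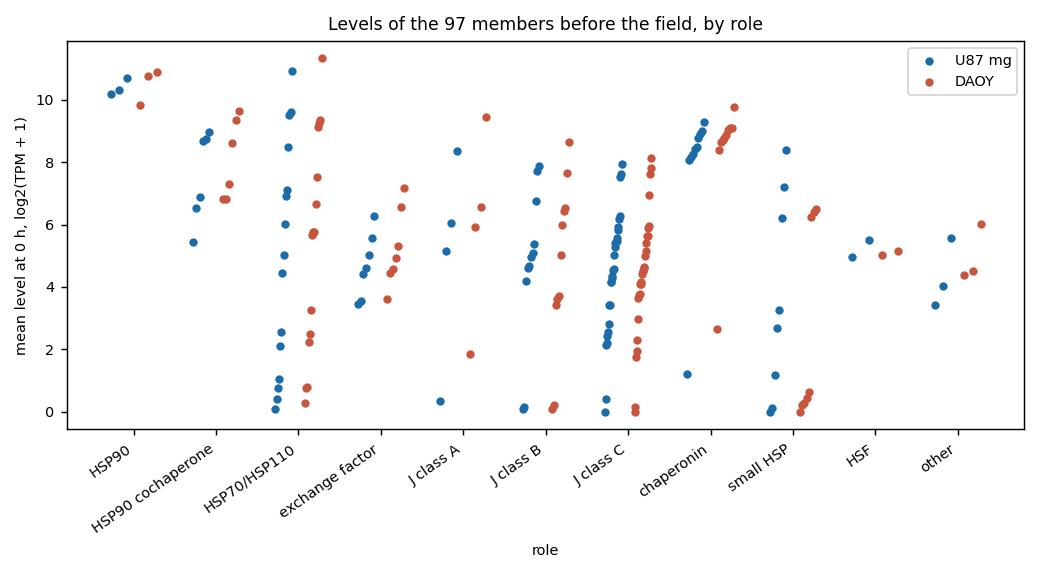
Mean level of each of the 97 members at 0 h, as log2(TPM + 1), by role, in U87 mg (blue) and DAOY (red), with 1 point a member. The HSP90 proteins and all chaperonin subunits but CCT6B lie among the higher points in both lines, and most small heat shock proteins lie near 0 in DAOY.

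Between the lines at 0 h, 55 of 90 members passed an FDR of 0.05, 26 higher and 29 lower in DAOY. Of all 16482 genes 60.7% passed, 32.8% higher and 27.9% lower, so the members did not stand out in number. Of the 90, 27 differed by at least 2-fold, against 41.2% of all genes. Of 6 small heat shock proteins tested, 5 were lower in DAOY and 0 higher, with a median log2 difference of -2.82. The count filter shaped this lean, since 6 passed it in the fit of U87 mg and 3 in that of DAOY. HSPB3, HSPB6 and HSPB7 passed it only through U87 mg, where they are higher. Their direction was therefore set by the filter, and the median cannot be read as a trait of the family.

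HSPB1, the small heat shock protein that binds actin and unfolded clients, was read at 174, 406 and 416 TPM in U87 mg and at 61.1, 120 and 71.7 TPM in DAOY. No DAOY sample reached the lowest of U87 mg, and the log2 difference, on the scale of counts, was -2.31 ± 0.36 (SE, adjusted p = 2.85e-05). HSPB3, a muscle small heat shock protein, was at 11.2, 8.15 and 6.66 TPM against 0.281, 0 and 0.806 TPM, a log2 difference of -4.72 ± 0.78 (adjusted p = 5.25e-05) that became -5.99 without DAOY 0 h replicate 2.

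HSPB6 followed with 1.78, 6.44 and 8.14 TPM in U87 mg and 0.372, 0.918 and 0.35 TPM in DAOY. HSPB7 had 1.08, 1.40 and 1.27 TPM against 0, 0.0673 and 0.395 TPM. The groups did not overlap for either, and the log2 differences were -3.33 (adjusted p = 0.000203) and -4.29 (adjusted p = 0.00137). With limma on log2(TPM + 1), a scale that understates the change of low genes, they were -2.85 for HSPB3, -1.91 for HSPB6 and -0.98 for HSPB7, and all 3 passed. The limma fit kept the same count filter, which had set the direction of these 3. Their passes and adjusted p values are therefore no support for a difference. The share of all genes whose samples did not overlap between the lines was not counted, here or for the other genes compared between the lines. DNAJC22, a membrane J-domain protein, was the last of the 5 with the largest negative differences, at 4.66, 5.97 and 7.64 TPM against 1.54, 1.9 and 3.73 TPM (log2 difference -1.59, adjusted p = 2.96e-05).

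In the other direction, BAG1, which releases nucleotide from HSP70, was at 22.6, 24.4 and 23.4 TPM in U87 mg and 78.3, 84.6 and 119 TPM in DAOY (log2 difference 1.80 ± 0.18, adjusted p = 1.2e-07). DNAJA4, a class A J-domain protein, was at 0.23, 0.353 and 0.214 TPM against 2.64, 2.36 and 2.77 TPM (3.45, adjusted p = 2.27e-07). Both genes had every DAOY sample above every U87 mg sample. For DNAJA4 the log2 difference was 1.504 with limma on log2(TPM + 1) and 7.63 with protein-coding transcripts only, which stood at 0 TPM in U87 mg and 1.49 ± 0.16 TPM in DAOY, and the rest was retained-intron RNA. CCT6B, a subunit variant of the cytosolic chaperonin, was at 1.26, 1.58 and 1.17 TPM against 5.24, 4.96 and 5.65 TPM (2.08, adjusted p = 3.18e-06). DNAJC12 was at 5.5, 4.17 and 4.78 TPM against 14.1, 18.8 and 17.9 TPM (1.82, adjusted p = 0.000316).

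HSPA1A and HSPA1B, the HSP70 genes that heat induces, lie side by side on chromosome 6 (31815464 to 31817946 and 31827735 to 31830255, GRCh38) and encode nearly the same transcript, so their split is uncertain. HSPA1A was listed at 0, 0.9 and 0.089 TPM in U87 mg at 0 h and at 26.4, 49.2 and 82.4 TPM in DAOY. HSPA1B was at 23.3, 37.4 and 34.4 TPM and at 30.3, 49.5 and 81.2 TPM. The fitted log2 difference of HSPA1A was 7.29 and moved between 5.25 and 9.39 over the alternatives. HSPA1A passed the count filter in the fit of DAOY, where it is higher, and not in that of U87 mg. Its direction was therefore set by the filter. With both genes summed, the log2 difference was 1.48 (adjusted p = 0.00194).

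After 2 h in the field, 0 of 89 members in U87 mg and 0 of 86 in DAOY passed edgeR's quasi-likelihood test, as did 0% of all genes in either line. At an unadjusted p under 0.05 there were 12 members in U87 mg, 10 of them higher, against 8.78% of all genes, and 1 member in DAOY against 2.75%. DESeq2 called 1 member in U87 mg and 0 in DAOY. DNAJB4 came nearest in U87 mg, with 27.0, 24.2 and 21.8 CPM (counts scaled by TMM to a common library size) at 0 h and 33.7, 48.7 and 45.2 CPM at 2 h, a log2 fold change of 0.82 ± 0.18 (adjusted p = 0.495). Without U87 mg 0 h replicate 0, 10 members passed at 2 h in U87 mg, 7 of them higher. That replicate was the highest of its group for 57 of 89 members, or 64.0%, against 45.2% of all genes. The shares of all genes that passed in that fit and with DESeq2 were not counted.

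After 8 h, 10 of 89 members had risen in U87 mg and 0 had fallen. Of all 14106 genes, 0.95% rose and 1.72% passed in either direction. The 10 were the HSP90 cochaperone CHORDC1, the HSP110 protein HSPH1, the J-domain proteins DNAJA1, DNAJA4, DNAJB1, DNAJB4, DNAJB6 and DNAJC2, the exchange factor BAG1, and the readthrough name HSPE1-MOB4. DNAJA4 passed the count filter only through samples in the field, where it is higher, so it adds no support to these counts. Of the 10, 4 rose by at least 2-fold, DNAJA4 among them, against 0.638% of all genes that changed by as much in either direction. The share of all genes that fell was 0.773%. The median log2 fold change over the members was 0.18, with 65 of 89 above 0, against -0.00 over all genes. In bulk RNA a change in the cells present and a change in RNA per cell cannot be told apart.

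In DAOY, 6 of 86 members passed at 8 h, against 5.85% of all 15396 genes, so their number was near the background. CHORDC1, DNAJB1, DNAJB4 and DNAJB6 rose, against 2.34% of all genes that rose, and DNAJB5 and DNAJC19 fell, against 3.5%. A change of at least 2-fold was seen for 2 of the 6, CHORDC1 and DNAJB5, against 3.13% of all genes. The 4 that rose were all among the 10 of U87 mg, which is 100% of the DAOY list and 40% of the U87 mg list. Over the 13138 genes tested in both lines, 55 rose in both, which is 16.9% of the 326 that rose in DAOY and 41.4% of the 133 that rose in U87 mg. The comparisons of the 2 lines share no sample. The median over the members in DAOY was 0.05, with 49 of 86 above 0.

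**Figure D2:**
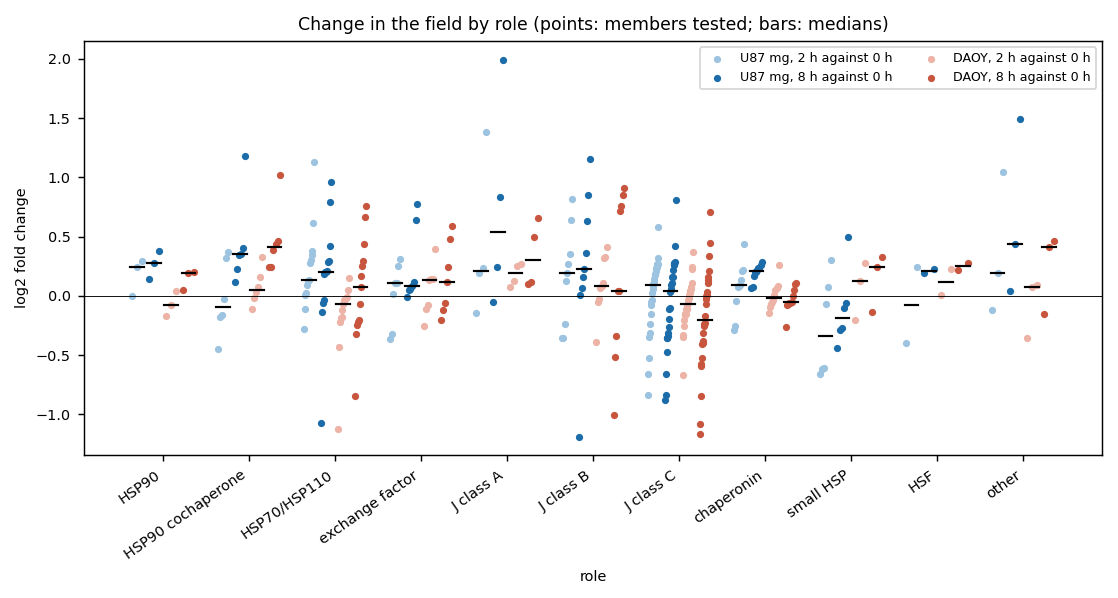
Log2 fold change against 0 h for every member tested, by role, after 2 h (pale) and 8 h (dark) in U87 mg (blue) and DAOY (red). Points are members and bars are medians, and the highest points at 8 h in U87 mg are DNAJA4 (1.99), the readthrough name HSPE1-MOB4 (1.49), CHORDC1 (1.18) and DNAJB4 (1.15). The direction of DNAJA4 was set by the count filter.

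By role, 6 of 39 J-domain proteins tested in U87 mg rose, against 0.95% of all genes. These 6 include DNAJA4, whose direction was set by the count filter. Of 39 in DAOY, 3 rose, against 2.34% of all genes, and 2 fell, against 3.5%. The difference between the lines was tested only as given below. Of all genes, 7070 of 14106 in U87 mg and 7883 of 15396 in DAOY had log2 fold changes below 0. All 10 chaperonin subunits had log2 fold changes above 0 in U87 mg, between 0.06 and 0.29, and 0 passed. In DAOY 4 of the 10 were above 0. All 6 HSP90 cochaperones were above 0 in both lines, with medians of 0.35 and 0.41, and CHORDC1 alone passed. Of the 6 small heat shock proteins tested in U87 mg, 1 was above 0 and 0 passed.

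CHORDC1 (chr11:90201160-90223364), a cochaperone that binds HSP90 through its CHORD domains, had the largest log2 fold change of the 4 that rose in both lines in each line. In U87 mg it went from 57.9, 44.9 and 35.1 CPM at 0 h to 93.9, 102 and 109 CPM at 8 h. In DAOY it went from 139, 83.9 and 128 CPM to 217, 279 and 201 CPM. Every 8 h sample lay above every 0 h sample in both lines, and the log2 fold changes were 1.18 ± 0.17 (adjusted p = 0.0158) and 1.02 ± 0.20 (adjusted p = 0.0213).

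DNAJB1 (chr19:14514770-14529770), the class B J-domain protein that works with inducible HSP70, stood at 155, 142 and 143 CPM in U87 mg at 0 h and at 271, 239 and 266 CPM at 8 h. In DAOY it stood at 63.0, 83.2 and 95.0 CPM and at 143, 154 and 132 CPM. Its 3 replicates at 8 h were above all at 0 h in each line. The log2 fold change was 0.85 ± 0.15 in U87 mg (adjusted p = 0.0236) and 0.85 ± 0.17 in DAOY (adjusted p = 0.0222).

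DNAJB4 (chr1:77979175-78017964), a class B relative of DNAJB1, was measured at 27.0, 24.2 and 21.8 CPM and then 41.3, 61.4 and 55.9 CPM in U87 mg. DAOY gave 96.3, 62.5 and 93.0 CPM and then 126, 182 and 155 CPM. The log2 fold changes were 1.15 ± 0.18 (adjusted p = 0.0178) and 0.91 ± 0.19 (adjusted p = 0.0264), with no overlap of 0 h and 8 h. More of its RNA was assigned to a processed transcript (36.0 ± 6.56 TPM in U87 mg at 8 h) than to protein-coding transcripts (18.3 ± 5.02 TPM). With protein-coding transcripts only, DNAJB4 did not pass in U87 mg (1.05, adjusted p = 0.0501) or in DAOY (0.84, adjusted p = 0.0741).

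DNAJB6 (chr7:157335381-157417439), which keeps aggregation-prone proteins soluble, had 236, 192 and 201 CPM and then 311, 286 and 357 CPM in U87 mg. It had 406, 304 and 369 CPM and then 529, 674 and 593 CPM in DAOY. The 0 h and 8 h samples did not overlap, and the log2 fold changes were 0.63 ± 0.12 (adjusted p = 0.0274) and 0.76 ± 0.15 (adjusted p = 0.0208).

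**Figure D3:**
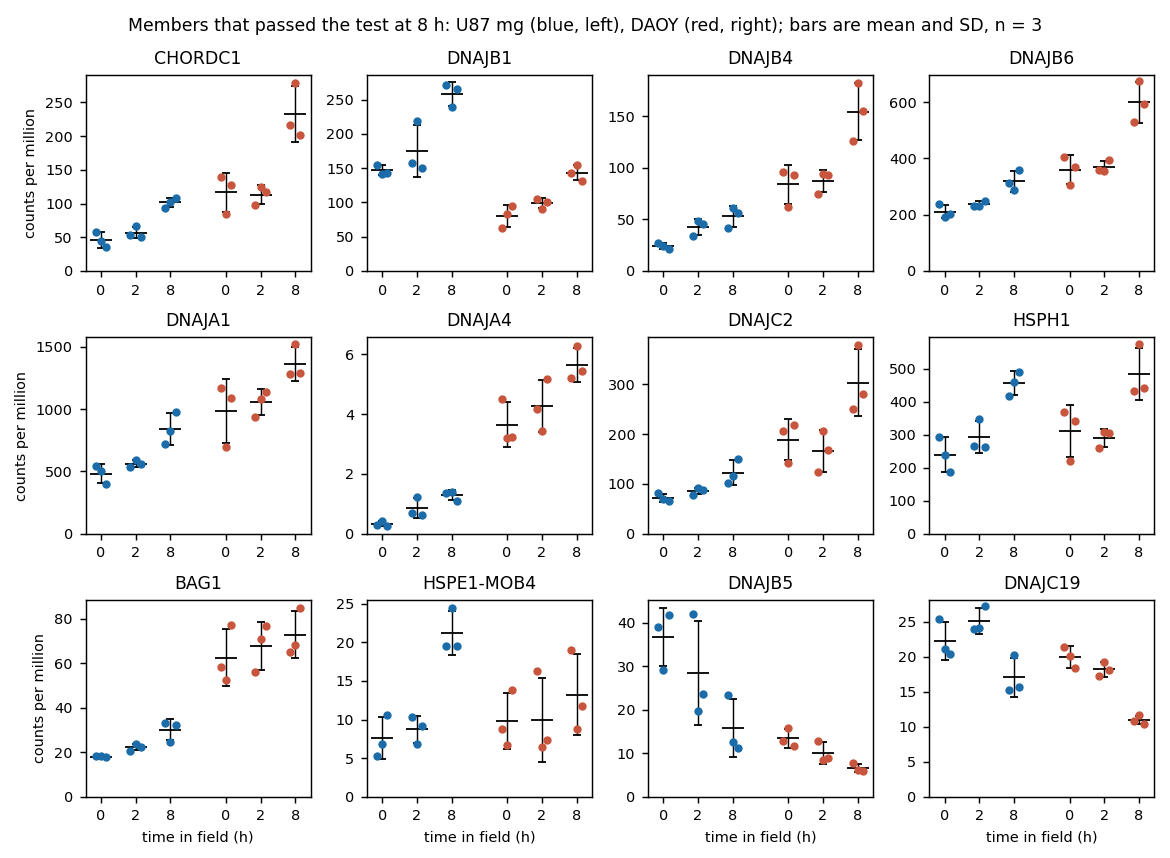
CPM of the 12 members that passed at 8 h in at least 1 line, by hours in the field, in each of 3 samples a group (U87 mg blue, left; DAOY red, right), with mean and SD. For CHORDC1, DNAJB1, DNAJB4 and DNAJB6 all 8 h samples lie above all 0 h samples in both lines.

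The other genes that rose in U87 mg did not pass in DAOY. HSPH1 (chr13:31134974-31162388), the HSP110 that serves HSP70 as exchange factor, went from 293, 239 and 187 CPM to 417, 460 and 489 CPM in U87 mg (log2 fold change 0.96 ± 0.17, adjusted p = 0.0236). In DAOY it had 369, 222 and 341 CPM and then 433, 575 and 443 CPM, also without overlap (0.67, adjusted p = 0.0729), and passed there with DESeq2 (adjusted p = 0.0275), with no filter on low counts (adjusted p = 0.0328) and with all 18 samples in one fit (adjusted p = 0.0434). DNAJA1 (chr9:33025211-33039907), the main cytosolic class A J-domain protein, went from 546, 507 and 396 CPM to 719, 826 and 978 CPM in U87 mg (0.83, adjusted p = 0.0242), and in DAOY had 1168, 696 and 1094 CPM and then 1282, 1521 and 1291 CPM (0.50, adjusted p = 0.156).

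DNAJC2 (chr7:103312474-103344873), a J-domain protein of the ribosome, went from 81.3, 68.9 and 65.3 CPM to 101, 116 and 151 CPM in U87 mg (0.81, adjusted p = 0.0274). In DAOY its log2 fold change was 0.71 (adjusted p = 0.0987). A large share of its RNA was assigned to retained-intron transcripts, 24.9 ± 8.69 TPM at 0 h and 48.2 ± 18.1 TPM at 8 h in U87 mg, beside 34.5 ± 10.5 and 53.3 ± 6.38 TPM of protein-coding ones. With protein-coding transcripts only it did not pass in U87 mg (0.64, adjusted p = 0.181). In DAOY the protein-coding transcripts were at 91.7 ± 17.2 and 88.9 ± 9.36 TPM.

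BAG1 (chr9:33247820-33264720) went from 18.3, 18.1 and 17.6 CPM to 33.2, 24.6 and 32.3 CPM in U87 mg (0.77, adjusted p = 0.0329), and in DAOY its log2 fold change was 0.24 (adjusted p = 0.483). DNAJA4 (chr15:78264086-78282196) had the largest fold in U87 mg, 1.99 on the log2 scale (adjusted p = 0.0455), at very low levels of 0.3, 0.42 and 0.259 CPM and then 1.37, 1.39 and 1.11 CPM. At levels this low at 0 h, it passed the count filter only through samples in the field, where it is higher. Its direction was therefore set by the filter, and its call is no support for a rise. Its RNA in U87 mg was nearly all of a retained-intron type, 0.27 ± 0.08 TPM at 0 h and 0.94 ± 0.17 TPM at 8 h, with protein-coding transcripts at 0 and 0.02 TPM. DNAJA4 passed in 0 of the 6 fits that left out 1 library, and did not pass with limma (0.68 on log2(TPM + 1), adjusted p = 0.143), the replicate block (adjusted p = 0.0599) or only the samples compared (adjusted p = 0.103), while DESeq2 gave it no adjusted p.

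HSPE1-MOB4 (chr2:197500413-197550726), a name for transcripts that run from HSPE1 into MOB4, had 5.29, 6.81 and 10.6 CPM and then 19.5, 24.5 and 19.6 CPM (1.49, adjusted p = 0.0236). It shares exons with both genes, and the 3 names summed gave a log2 fold change of 0.09 (adjusted p = 0.801).

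**Figure D4:**
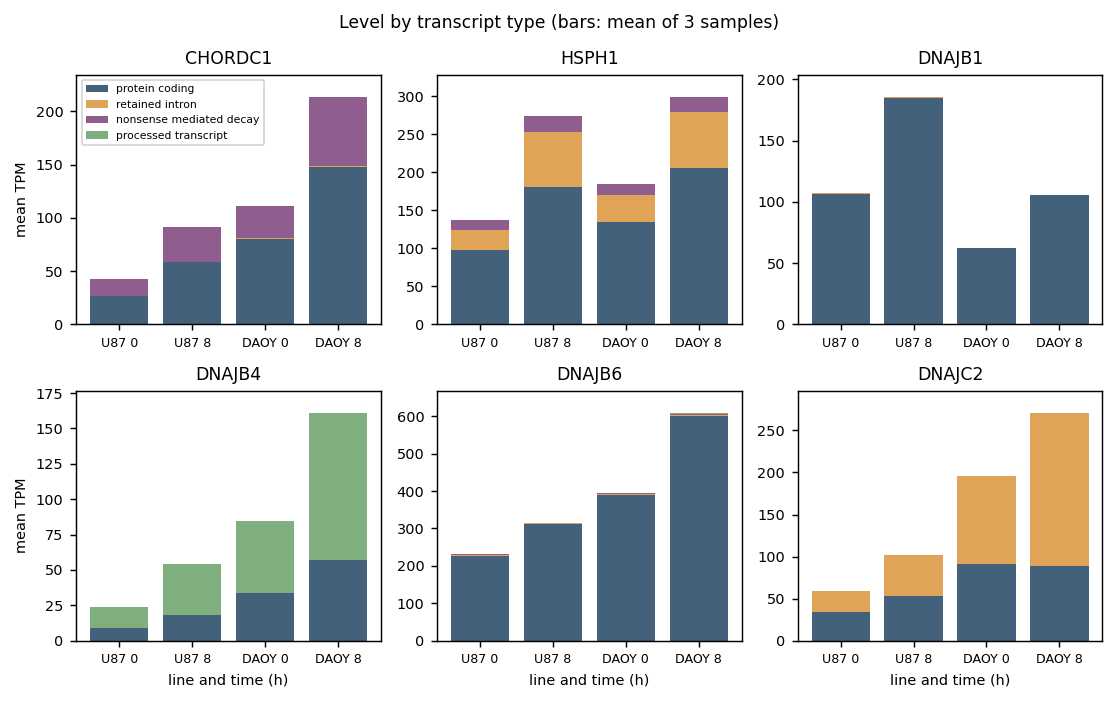
Mean level in TPM of 6 members that rose at 8 h in U87 mg, split by annotated transcript type, at 0 and 8 h in each line (bars: mean of 3 samples). DNAJB1 and DNAJB6 are nearly all protein coding, while DNAJB4 and DNAJC2 hold large shares of processed or retained-intron transcripts.

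In DAOY, DNAJB5 (chr9:34989641-34998900), a class B J-domain protein, fell from 12.7, 15.7 and 11.7 CPM to 7.67, 6.05 and 5.95 CPM, by 1.00 on the log2 scale (adjusted p = 0.0467). It passed in 0 of the 6 fits that left out 1 library (adjusted p from 0.0568 to 0.163), and not with limma (adjusted p = 0.0724), the replicate block (adjusted p = 0.0696), only the samples compared (adjusted p = 0.0815) or protein-coding transcripts only (adjusted p = 0.0643). In U87 mg it had 38.9, 29.2 and 41.8 CPM and then 23.3, 12.6 and 11.1 CPM, a log2 fold change of -1.19 (adjusted p = 0.0809). DNAJC19 (chr3:180983709-180989774), a J-domain protein of the inner mitochondrial membrane, fell from 21.5, 20.1 and 18.4 CPM to 10.8, 11.7 and 10.4 CPM (-0.84, adjusted p = 0.0222). In U87 mg its log2 fold change was -0.35 (adjusted p = 0.313).

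The difference between the 8 h changes of the lines was tested directly, and 0 of 90 members passed edgeR's quasi-likelihood test, against 0.0121% of all genes. At an unadjusted p under 0.05 there were 4, against 8.88% of all genes. DESeq2 called 0. For CHORDC1 the difference, DAOY minus U87 mg, was -0.15 with a 95% interval of -0.75 to 0.44, for DNAJB1 0.01 (-0.45 to 0.47), and for DNAJA4 -1.34 (-2.31 to -0.36, adjusted p = 0.341). The intervals of CHORDC1 and DNAJB1 include differences in either direction.

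**Figure D5:**
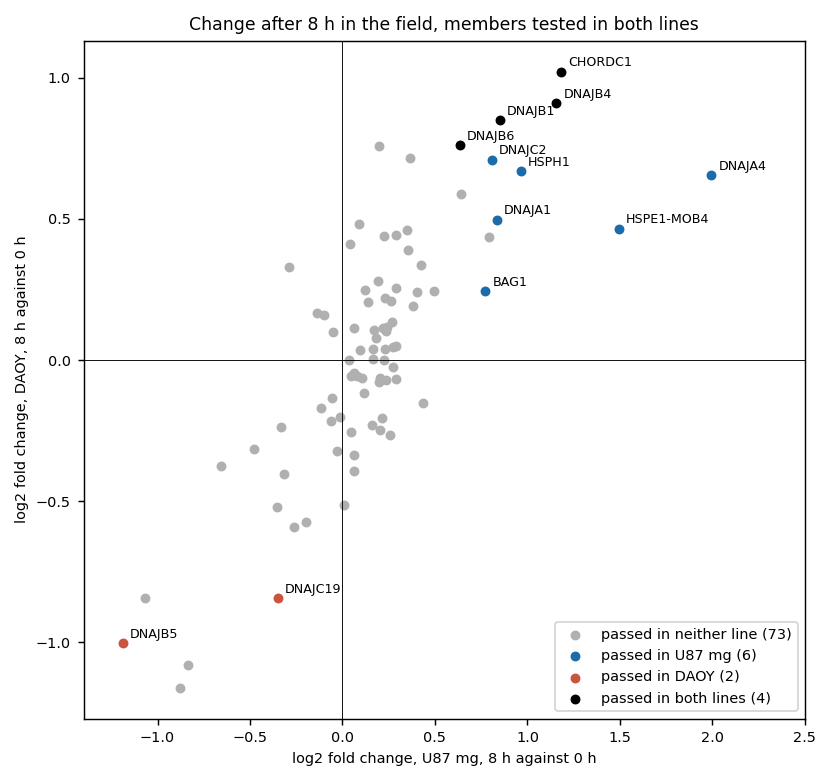
Log2 fold change at 8 h against 0 h in DAOY (vertical) and U87 mg (horizontal) for the 85 members tested in both lines. The 4 members that passed in both lines (black) lie at the upper right, and 73 passed in neither (grey).

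HSPA8 and the cytosolic HSP90 proteins, which are among the most abundant members, did not pass at 8 h. HSPA8 had 2460, 2346 and 1818 CPM and then 2346, 2884 and 2673 CPM in U87 mg, with overlap (log2 fold change 0.29, 95% interval -0.03 to 0.61, adjusted p = 0.373). HSP90AA1 had 4204, 3458 and 2902 CPM and then 3818, 5034 and 4574 CPM, also with overlap (0.38, adjusted p = 0.266). HSP90AB1, the constitutive cytosolic HSP90, gave 2097, 1832 and 1739 CPM and then 2127, 2237 and 2341 CPM (0.28, adjusted p = 0.312).

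In DAOY the log2 fold changes were 0.26 for HSPA8, 0.19 for HSP90AA1 and 0.05 for HSP90AB1, with adjusted p values of 0.483, 0.588 and 0.898. HSP90B1, the HSP90 of the endoplasmic reticulum, had 0.14 in U87 mg and 0.20 in DAOY, and HSPA5, its HSP70, -0.06 and -0.22. The mitochondrial chaperonin HSPD1 had 0.24 and 0.10 and its partner HSPE1 0.08 and -0.06. The small heat shock protein HSPB1 had -0.29 and 0.33. All adjusted p values of these 5 were 0.483 or more.

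Among the genes that heat induces most, HSPA1B had 38.8, 56.8 and 53.1 CPM and then 88.3, 82.7 and 82.3 CPM in U87 mg, without overlap, but did not pass (0.79, adjusted p = 0.285). Of 9 other settings with all libraries it passed in 1, with no filter on low counts (adjusted p = 0.000294). In DAOY it had 52.3, 68.6 and 114 CPM and then 118, 115 and 81.2 CPM (0.44, adjusted p = 0.409). Summed with HSPA1A the log2 fold changes were 0.79 (adjusted p = 0.287) and 0.38 (adjusted p = 0.517). HSPA1A alone was tested in DAOY only (0.29, adjusted p = 0.665).

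BAG3, the exchange factor that directs clients to autophagy, had 60.0, 78.5 and 77.5 CPM and then 110, 107 and 113 CPM in U87 mg (0.64, adjusted p = 0.0689). In DAOY it had 25.2, 27.6 and 40.7 CPM and then 49.1, 44.9 and 44.4 CPM (0.59, adjusted p = 0.106). The groups did not overlap in either line, and the test was not passed. The share of all genes whose 0 h and 8 h samples did not overlap was not counted, here or for the genes above. Members such as DNAJC18 and DNAJC30 also had no overlap in either line, with all 8 h samples lower. BAG3 passed in U87 mg with DESeq2 (adjusted p = 0.0088) and with no filter on low counts (adjusted p = 0.00608), and in DAOY with all 18 samples in one fit (adjusted p = 0.0474) and without DAOY 0 h replicate 2 (adjusted p = 0.0495). The factors themselves, HSF1 and HSF2, had log2 fold changes of 0.19 and 0.23 in U87 mg and 0.28 and 0.22 in DAOY, with adjusted p values of 0.543 or more.

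Of 31 further genes of the chaperone network that are no members, such as TCP1, HYOU1, CRYAB and the prefoldins, the test covered 31 in U87 mg and 30 in DAOY. At 8 h 0 passed in either line by edgeR, and at an unadjusted p under 0.05 there were 5 in U87 mg, all higher, against 15.9% of all genes, and 4 in DAOY, 2 in each direction, against 22.7%. Between the lines at 0 h, 8 of 31 were higher and 12 lower in DAOY, against 32.8% and 27.9% of all genes.

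The 8 h counts rested on few libraries. Each of the 16 calls at 8 h was lost in 2 to 6 of the 6 fits that left out 1 library. The shares of all genes that passed in these fits were not counted. In U87 mg 0 members passed without U87 mg 8 h replicate 2, 1 without U87 mg 0 h replicate 1 or replicate 2, and 6 without U87 mg 8 h replicate 1. In DAOY 0 passed without DAOY 8 h replicate 1 or replicate 2, 2 without DAOY 0 h replicate 2 and 3 without DAOY 8 h replicate 0. DAOY 0 h replicate 1 was the lowest of its group for 55 of 86 members, or 64.0%, against 36.1% of all genes, and its part in the results was not tested beyond leaving it out. In every one of these fits CHORDC1 stayed above 0, between 0.98 and 1.37 in U87 mg and between 0.84 and 1.15 in DAOY.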

How the data were processed

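RNA-SEQ was run on 18 samples as single-end reads from stranded, poly-A selected libraries. The authors trimmed the reads and ran Kallisto 0.43.0 on the GENCODE transcripts (GRCh38.p5), and deposited, for every sample, estimated counts and TPM of each transcript. The strand option is not given in the sources used here, so genes that overlap on opposite strands and near-identical paralogs are uncertain. The authors also deposited columns of their own comparisons, holding log2 fold changes, each p-value and each q-value, none of which was used. No depth other than estimated counts was used.

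Estimated counts were summed over all transcripts of a gene name and rounded. Genes were filtered with filterByExpr, libraries scaled by TMM, and the 9 samples of a line, or all 18 for comparisons between lines, analysed by edgeR's quasi-likelihood test (glmQLFit, glmQLFTest, version 4.0.16, in R 4.3.3). Calls used a Benjamini-Hochberg FDR below 0.05 over all genes. Every adjusted p in the text comes from this test unless another tool or setting is named beside it. Labels give each sample its group. The study calls the replicates biological. The p-values set differences against the spread between these selected samples of a line, not between tumors. Alternatives used DESeq2 1.42.0, limma 3.58.1 with log2(TPM + 1), other filters and scalings, a replicate block and each replicate left out. Scripts were tested on simulated data. Coordinates came from GENCODE 29 on GRCh38. Python 3.11.15, pandas 2.3.3, numpy 2.4.6 and matplotlib 3.10.9 made tables and figures.

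The members and lists were chosen with earlier results of these data known. Values are given for all members past the FDR at 8 h within a line, although up to 8 in each direction had been planned. The 5 largest differences between lines in each direction are given too. Values are also given for 16 members listed for stress induction or as the factors that drive it. These 16 include HSF1, HSF2 and the constitutive HSPA8 and HSP90AB1. The summed genes were chosen after seeing the data.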

Additional observations from a re-analysis of the deposited data

How the results depend on the processing

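At 8 h in U87 mg, where 10 members passed, 0 passed with limma on log2(TPM + 1) and 0 with only the samples compared, 5 with all 18 samples in one fit, 6 with protein-coding transcripts only, 11 with DESeq2, 13 with no filter on low counts and 4 when a log2 change of at least 1 was also asked. Leaving out 1 replicate gave 0 to 9. At 8 h in DAOY, where 6 passed, DESeq2 called 12 members, all 18 samples 15, only the samples compared 0 and the added 2-fold criterion 2. Leaving out 1 replicate gave 0 to 7. At 2 h in U87 mg, where 0 passed, DESeq2 called 1 and no filter on low counts 4, and leaving out 1 replicate gave 0 to 10. Between the lines at 0 h the added 2-fold criterion left 27 of 55, and leaving out 1 replicate gave 47 to 53. At 2 h in DAOY and for the difference of the 8 h changes, 0 passed in all these settings. With the replicate number as a block, 8 members passed in U87 mg and 1 in DAOY at 8 h. Same-numbered samples of 2 and 8 h deviated together, with correlations from 0.118 to 0.209 in U87 mg and from 0.0721 to 0.396 in DAOY. Those of 0 h with 2 or 8 h did not in every pair (correlations from -0.18 to 0.276), so the numbers were not taken as a pairing. Where the shared part of the 2 and 8 h samples comes from was not tested. Signs turned only for members that did not pass. In U87 mg these were HSPA5 (-0.254 to 0.227 with 1 replicate left out), HSF1 (-0.0408 to 0.427) and HSPE1 (-0.059 to 0.164, and -0.0125 with limma). In DAOY they were HSP90AB1 (-0.0603 to 0.109 with 1 replicate left out, and -0.0037 with limma), HSPD1 (-0.0304 to 0.241, and -0.0391 with limma), HSPE1 (-0.164 to 0.0821, and 0.476 with protein-coding transcripts only) and HSF1 (-0.0784 with limma). HSPE1-MOB4 lost its call when summed with HSPE1 and MOB4. The cause of these changes was not tested. Apart from the added 2-fold criterion, the shares of all genes that passed in these settings were not counted. The counts of members under them therefore cannot be set against a background.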
